A study of Mus musculus with 12 samples.

Results

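Mammary cells that carried a Myf5-Cre lineage label were compared with unlabelled cells of the same sorted gate at day 10 of lactation. Of the 12 libraries of the series, 4 make up this comparison, chosen by their labels alone: 2 GFP-positive and 2 GFP-negative libraries from C57BL/6 mice that carried Myf5-Cre together with the ROSAmTmG reporter. This reporter makes membrane tdTomato until Cre removes it and membrane GFP afterwards, so that GFP marks cells in which Cre was once active and all of their descendants, whether or not Myf5 is still transcribed. Both groups came from the gate that the labels call myoepithelial, which is lineage-negative, CD24-positive and CD29-high. A further 2 groups of 2 libraries entered the same statistical fit so that the groups of 2 could share an estimate of the spread. They were GFP-negative cells of the same gate and day from Ucp1-iCre ROSAmTmG mice, and brown adipocytes with GFP that were sorted from Myf5-Cre ROSAmTmG females aged 8 weeks. Left out of this fit were the GFP-positive mammary cells and brown adipocytes of the Ucp1-iCre line, which entered only alternative fits. The mammary cells were left out because earlier work on these data found their replicates far apart (r = 0.449 here). The labels do not say whether the 2 libraries of a group came from separate animals, so the p-values below measure only the spread between these samples, which may be technical.

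Myf5 encodes a basic helix-loop-helix factor that starts the skeletal muscle programme in cells of the somite. Lineage tracing in mice with Myf5-Cre labels skeletal muscle, much of the brown fat between the shoulder blades and some mesenchymal cells of the trunk. Myoepithelial cells form the outer, basal layer of mammary ducts and alveoli. They carry basal keratins and the transcription factor p63 as epithelial cells do, and contractile proteins as smooth muscle does, and they contract in response to oxytocin to eject milk.

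The GFP-positive libraries held 15118406 and 24011083 counts over 13761 and 16238 detected genes, and the GFP-negative libraries 22039599 and 20914305 counts over 15589 and 17958 genes. Replicates correlated across genes at r = 0.791 within the GFP-positive and 0.867 within the GFP-negative pair, against 0.984 in the Ucp1 GFP-negative pair. All levels are counts-per-million (CPM) with trimmed-mean scaling, given for replicate 1 and then replicate 2. The driver gene Myf5 (ENSMUSG00000000435, mm10 chromosome 10, 107482908 to 107486134) had 11.7 and 0 CPM in GFP-positive cells, against 0 and 0 CPM in GFP-negative cells, which is 193 counts in 1 of the 4 libraries. Itgb1, which encodes the sort marker CD29, was at 373 and 813 CPM in GFP-positive cells, against 261 and 607 CPM in GFP-negative cells (log2 0.45, SE 0.524, edgeR adjusted p = 0.802). Cd24a, the other sort marker, was at 51.2 and 12.8 CPM in GFP-positive cells, against 76.2 and 60.8 CPM in GFP-negative cells (log2 -1.10, SE 0.82, edgeR adjusted p = 0.635). For both sort markers the difference did not pass the threshold, although both Cd24a values of the GFP-positive cells lay below both of the GFP-negative cells.

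The GFP-positive cells of this gate held little basal epithelial RNA and much stromal RNA. Summed over 17 fibroblast and mesenchymal progenitor genes, the level was 41657 and 36511 CPM in GFP-positive cells, against 3476 and 2470 CPM in GFP-negative cells. Over 19 basal epithelial genes the sum was 504 and 729 CPM in GFP-positive cells, against 3006 and 5631 CPM in GFP-negative cells. The 17 contractile genes summed to 6141 and 8713 CPM in GFP-positive cells, against 11366 and 22507 CPM in GFP-negative cells, so contractile transcripts stayed abundant in both. On these markers the GFP-positive cells carried little of the keratin signature of their label, and they are called by their gate and GFP status here. In bulk RNA, fewer cells of a type and less RNA per cell cannot be told apart.

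Markers of other cell types differed between the groups as well. The pericyte list summed to 4006 and 3912 CPM in GFP-positive cells, against 1034 and 648 CPM in GFP-negative cells. Lower in both GFP-positive libraries were the sums of the endothelial list (1967 and 3171 CPM in GFP-positive cells, against 6638 and 6562 CPM in GFP-negative cells), the immune list (573 and 882 CPM in GFP-positive cells, against 2293 and 1798 CPM in GFP-negative cells) and the erythroid list. The erythroid sum was 17.9 and 47 CPM in GFP-positive cells, against 249 and 277 CPM in GFP-negative cells. Milk protein and secretory genes summed to 43509 and 19691 CPM in GFP-positive cells, against 125542 and 65207 CPM in GFP-negative cells, so milk transcripts were present in all 4 libraries. The T cell receptor subunit gene Cd3e of the immune list had 0 counts in both GFP-positive libraries, against 1.17 and 0.0788 CPM in GFP-negative cells, and the B cell receptor gene Cd79a 0 counts in GFP-positive cells, against 3.93 and 1.58 CPM in GFP-negative cells. Ms4a1, another B cell gene, had 0 counts in all 4 libraries. Slc4a1 of the erythroid list had 0 counts in GFP-positive cells, against 0 and 0.118 CPM in GFP-negative cells. These 4 genes were named after their values were seen. The part of these cell types in the gene differences below was not tested.

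**Figure D1:**
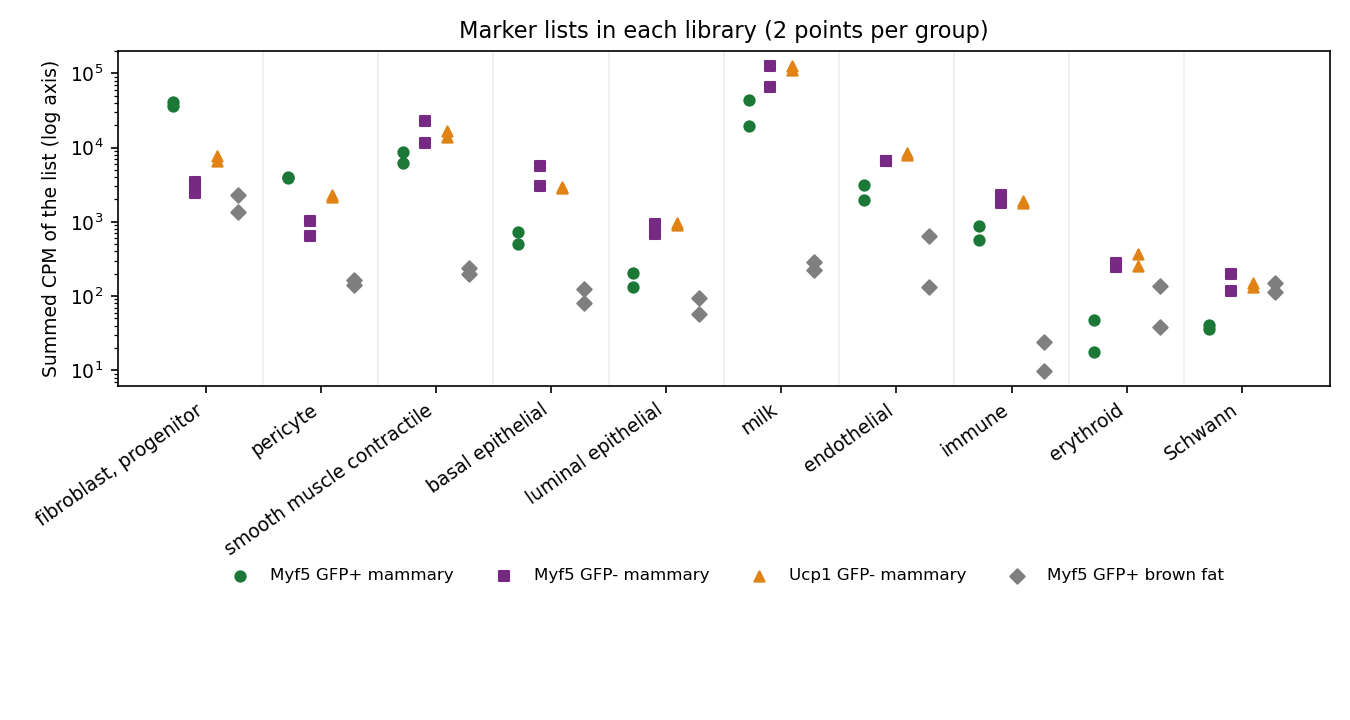
Summed CPM of 10 cell type marker lists in each library, on a log axis, with 2 points per group. Fibroblast sums of the Myf5 GFP-positive cells lie at 41657 and 36511 CPM, above both unlabelled groups, while their basal epithelial sums of 504 and 729 CPM lie below both.

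Across all genes, edgeR's quasi-likelihood test on the 8 libraries called 106 of 16375 genes at a Benjamini-Hochberg adjusted p under 0.05, which is 0.647% of the genes tested. Of these, 87 (0.531%) were higher and 19 (0.116%) lower in GFP-positive cells, and in all 106 both values of 1 group lay above both of the other. Such a lack of overlap was common without a call: 2432 genes (14.9%) lay higher and 3332 (20.3%) lower in both GFP-positive libraries. These shares stand beside the counts of list members below. The smallest adjusted p was 0.0387, and 2370 genes had an unadjusted p under 0.05. All calls sit close to the threshold, and their number moved with the libraries fitted. In a fit of the 4 Myf5 mammary libraries alone, and without either GFP-negative library, edgeR called 0 genes (1379, 2210 and 2796 at an unadjusted p under 0.05), whereas 1349 were called without replicate 2 of the GFP-positive cells. Falls then outnumbered rises, with 467 genes higher and 882 lower, and the median log2 fold change of all genes tested was -0.356, against -0.061 with that library. With DESeq2 1358 genes (8.29%) were called, 832 of them higher, and with limma-voom 989 (6.04%), 563 of them higher, and both sets held all 106.

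**Figure D2:**
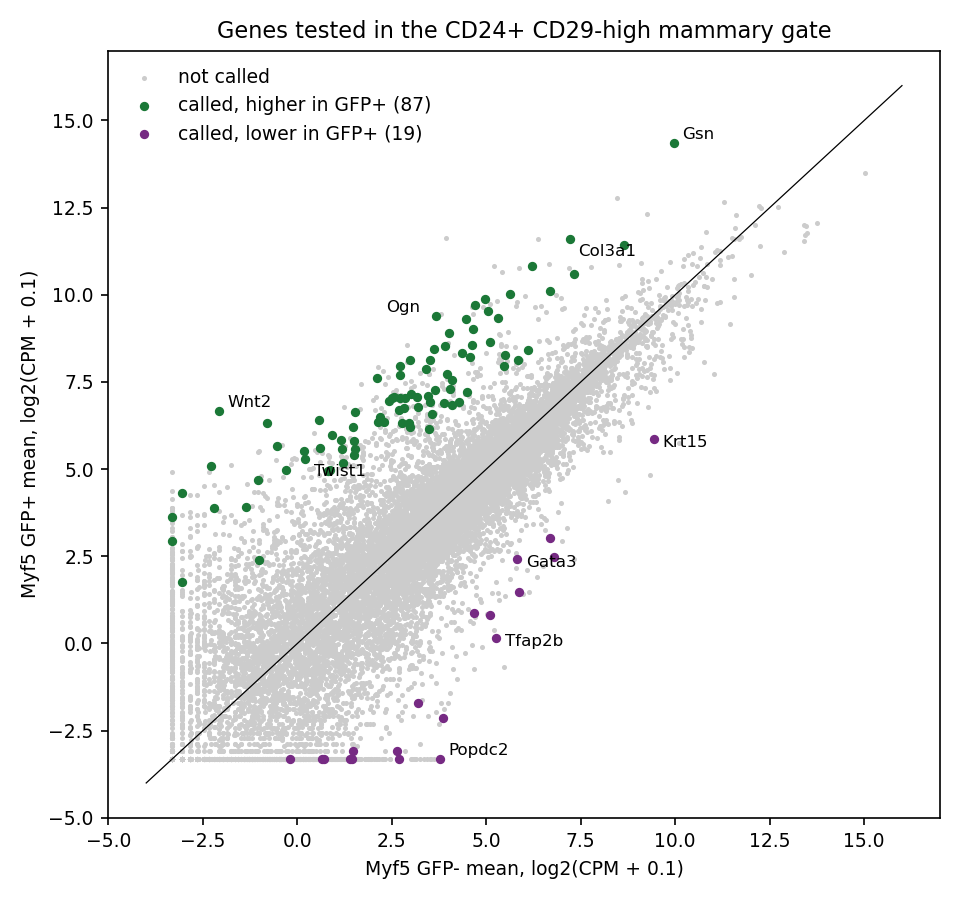
Mean level of each of the 16375 tested genes in Myf5 GFP-positive cells (vertical axis) against GFP-negative cells (horizontal axis), both as log2(CPM + 0.1), with the line of equal levels. The 87 called rises lie above the line over the whole range of levels up to Gsn, and the 19 called falls below it, 7 of them at 0 counts in both GFP-positive libraries.

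Fibroblast and progenitor genes had the highest median of the gene lists. All 17 tested members had a positive log2 fold change, 16 of them lay higher in both GFP-positive libraries and 5 were called, with a median of 4.38 against -0.061 over all genes tested. Type III collagen (Col3a1, ENSMUSG00000026043, mm10 chromosome 1, 45311538 to 45349706), a fibrillar collagen of loose connective tissue, was at 2399 and 3810 CPM in GFP-positive cells, against 125 and 171 CPM in GFP-negative cells (log2 4.39, SE 0.473, edgeR adjusted p = 0.0387). The type I collagen chain Col1a2 was at 1435 and 2186 CPM in GFP-positive cells, against 69.2 and 77.5 CPM in GFP-negative cells (log2 4.63, SE 0.651, edgeR adjusted p = 0.0399). Both collagens were more than 10 times as abundant in either GFP-positive library as in any GFP-negative one.

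Dpt (ENSMUSG00000026574, mm10 chromosome 1, 164796644 to 164824266), which encodes dermatopontin, a matrix protein of universal fibroblasts, was at 488 and 214 CPM in GFP-positive cells, against 15 and 9.41 CPM in GFP-negative cells (log2 4.84, SE 0.574, edgeR adjusted p = 0.0387). Dpp4 (ENSMUSG00000035000, mm10 chromosome 2, 62330073 to 62412231), a cell-surface peptidase carried by interstitial progenitors of adipose tissue and skin, was at 124 and 123 CPM in GFP-positive cells, against 7.3 and 3.31 CPM in GFP-negative cells (log2 4.54, SE 0.573, edgeR adjusted p = 0.0387). The pair of GFP-positive Dpp4 values was nearly identical, and Dpt was higher in replicate 1. Gelsolin (Gsn, ENSMUSG00000026879, mm10 chromosome 2, 35256380 to 35307892), which severs and caps actin filaments, was the most abundant called gene at 19132 and 22387 CPM in GFP-positive cells, against 1316 and 684 CPM in GFP-negative cells (log2 4.38, SE 0.569, edgeR adjusted p = 0.0392). Several stromal genes with differences as large did not pass the threshold: Pdgfra, the platelet-derived growth factor receptor of mesenchymal cells, was at 163 and 195 CPM in GFP-positive cells, against 14.1 and 5.36 CPM in GFP-negative cells (log2 4.20, SE 0.685, edgeR adjusted p = 0.0606), and Pi16, another progenitor marker, was at 269 and 164 CPM in GFP-positive cells, against 13.4 and 5.36 CPM in GFP-negative cells (log2 4.53, SE 1.3, edgeR adjusted p = 0.164). Cd34 and Ly6a, which endothelial cells also carry, had log2 fold changes of 1.58 and 0.38, and the Ly6a values overlapped between the groups. Ly6a shares 26.4% of its transcript sequence with other genes, so its counts are uncertain.

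Matrix genes followed the collagens. Of 26 tested genes of fibrils and their cross-linking, 22 lay higher in both GFP-positive libraries and 5 were called, all higher (median 3.21). Fibronectin (Fn1, ENSMUSG00000026193, mm10 chromosome 1, 71585520 to 71653200), the glycoprotein on which cells assemble new matrix, was at 702 and 558 CPM in GFP-positive cells, against 19.2 and 25 CPM in GFP-negative cells (log2 4.83, SE 0.457, edgeR adjusted p = 0.0387). Loxl1 (ENSMUSG00000032334, mm10 chromosome 9, 58287738 to 58313186), a lysyl oxidase needed for elastic fibres, was at 84.5 and 63.4 CPM in GFP-positive cells, against 1.94 and 3.43 CPM in GFP-negative cells (log2 4.78, SE 0.509, edgeR adjusted p = 0.0387). Osteoglycin (Ogn, ENSMUSG00000021390, mm10 chromosome 13, 49608046 to 49624501), a small leucine-rich proteoglycan, was at 924 and 414 CPM in GFP-positive cells, against 13 and 12.2 CPM in GFP-negative cells (log2 5.73, SE 0.765, edgeR adjusted p = 0.0392). Ogn differed by more than 30-fold between the lowest GFP-positive and the highest GFP-negative library, the widest gap among the called matrix genes.

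Biglycan (Bgn), a related proteoglycan, was at 3030 and 2442 CPM in GFP-positive cells, against 416 and 381 CPM in GFP-negative cells (log2 2.78, SE 0.417, edgeR adjusted p = 0.0437), and the collagen VI chain Col6a3 at 245 and 398 CPM in GFP-positive cells, against 13.4 and 27.4 CPM in GFP-negative cells (log2 3.98, SE 0.555, edgeR adjusted p = 0.0395). Some abundant matrix genes had smaller differences. Sparc, a collagen-binding matricellular protein, was at 6288 and 5742 CPM in GFP-positive cells, against 5378 and 4089 CPM in GFP-negative cells (log2 0.35), and Postn, a matricellular protein of remodelling tissue, at 830 and 642 CPM in GFP-positive cells, against 223 and 550 CPM in GFP-negative cells (log2 0.93), each without a call. In the basement membrane list 1 of 13 tested genes was called: Lama2 (ENSMUSG00000019899, mm10 chromosome 10, 26980036 to 27619758), the laminin chain of muscle and nerve basement membranes, was at 146 and 122 CPM in GFP-positive cells, against 11.4 and 6.34 CPM in GFP-negative cells (log2 3.92, SE 0.508, edgeR adjusted p = 0.0414). Only 2 of these genes lay higher and 2 lower in both GFP-positive libraries, beside 14.9% and 20.3% over all genes. The list median was -0.36.

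**Figure D3:**
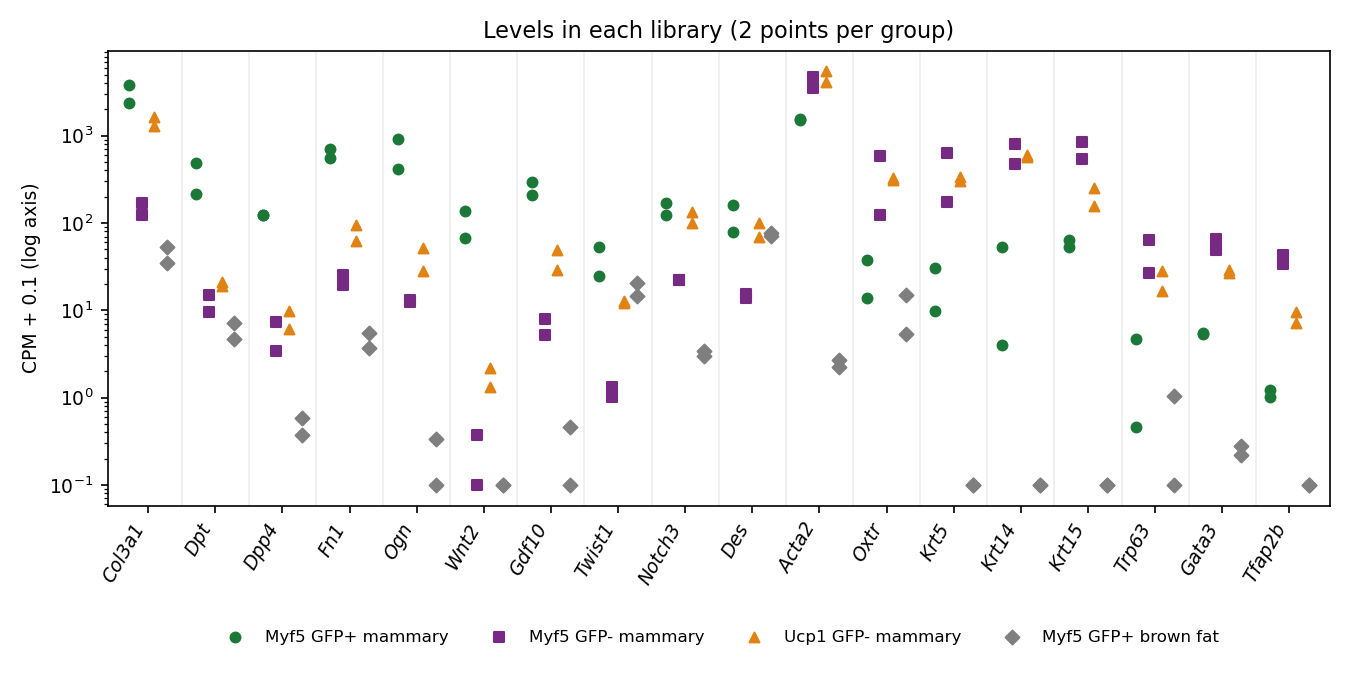
Level of 18 genes in each library as CPM + 0.1 on a log axis, 2 points per group, from stromal genes on the left through regulators and contractile genes to epithelial genes on the right. The GFP-positive points lie above the Myf5 GFP-negative points from Col3a1 to Des and below them from Acta2 to Tfap2b, and for Notch3 and Des the Ucp1 GFP-negative points lie at the height of the GFP-positive ones.

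Mural and contractile genes split. Notch3 (ENSMUSG00000038146, mm10 chromosome 17, 32120820 to 32166852), the Notch receptor of pericytes and vascular smooth muscle, was at 124 and 170 CPM in GFP-positive cells, against 22.1 and 22.4 CPM in GFP-negative cells (log2 2.73, SE 0.372, edgeR adjusted p = 0.0392). It was the only called member of the pericyte list, of which 13 of 14 lay higher in both GFP-positive libraries (median 2.39). Abcc9, a subunit of the potassium channel of pericytes, was at 181 and 145 CPM in GFP-positive cells, against 34.8 and 25.5 CPM in GFP-negative cells (log2 2.43, SE 0.452, edgeR adjusted p = 0.0662), and the proteoglycan gene Cspg4, which encodes NG2, at 42.1 and 78.5 CPM in GFP-positive cells, against 9.08 and 17.6 CPM in GFP-negative cells (log2 2.17, SE 0.519, edgeR adjusted p = 0.119).

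Desmin (Des, ENSMUSG00000026208, mm10 chromosome 1, 75360329 to 75368579), the intermediate filament of muscle cells, was at 79.5 and 159 CPM in GFP-positive cells, against 15.4 and 13.7 CPM in GFP-negative cells (log2 3.03, SE 0.463, edgeR adjusted p = 0.0437) and was the only called contractile gene. The rest of that list leaned the other way: 8 of 17 tested genes lay lower and 2 higher in both GFP-positive libraries, beside 20.3% and 14.9% over all genes (median -1.16, and -1.63 to -0.11 under the alternatives run). Cnn1, the thin filament protein calponin, was at 126 and 296 CPM in GFP-positive cells, against 1652 and 2527 CPM in GFP-negative cells (log2 -3.31, SE 0.532, edgeR adjusted p = 0.0504), just short of the threshold. The oxytocin receptor gene Oxtr, through which myoepithelial cells are made to contract, was at 13.8 and 37.3 CPM in GFP-positive cells, against 125 and 586 CPM in GFP-negative cells (log2 -3.80, SE 0.913, edgeR adjusted p = 0.119), with each GFP-positive value below each GFP-negative one. By contrast Myl9, the regulatory light chain of smooth muscle myosin, and Cald1, caldesmon, overlapped between the groups at log2 -0.27 and 0.07. Myocardin (Myocd), a coactivator of smooth muscle genes, was at 2.07 and 8.47 CPM in GFP-positive cells, against 0.13 and 0.591 CPM in GFP-negative cells (log2 3.85, SE 1.36, edgeR adjusted p = 0.26).

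Basal epithelial genes lay lower in the GFP-positive cells. Of 17 tested members, 12 lay lower and 1 higher in both GFP-positive libraries, and 1 was called, with a median of -3.02. That gene was keratin 15 (Krt15, ENSMUSG00000054146, mm10 chromosome 11, 100131758 to 100135928), a keratin of basal and progenitor cells, at 53.2 and 63.4 CPM in GFP-positive cells, against 538 and 850 CPM in GFP-negative cells (log2 -3.57, SE 0.464, edgeR adjusted p = 0.0414). Keratin 14 was at 3.89 and 53 CPM in GFP-positive cells, against 480 and 808 CPM in GFP-negative cells (log2 -4.50, SE 1.17, edgeR adjusted p = 0.15) and keratin 5, its partner in filaments, at 9.78 and 30.8 CPM in GFP-positive cells, against 175 and 639 CPM in GFP-negative cells (log2 -4.32, SE 0.858, edgeR adjusted p = 0.0901). The GFP-positive values of these 2 keratins differed several-fold between replicates, with replicate 1 the lower one. Of the keratin 14 and keratin 5 transcript sequence, 25.3% and 12% also occurs in transcripts of other genes, so their counts are uncertain.

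Trp63, which encodes the basal regulator p63, was at 0.365 and 4.53 CPM in GFP-positive cells, against 26.3 and 63.8 CPM in GFP-negative cells (log2 -4.18, SE 1.41, edgeR adjusted p = 0.222), and Col17a1, a hemidesmosome collagen, at 4.31 and 15.3 CPM in GFP-positive cells, against 38.5 and 244 CPM in GFP-negative cells (log2 -3.84, SE 1.03, edgeR adjusted p = 0.161). The exception was Egfr, the epidermal growth factor receptor, which stromal cells also carry, at 89.8 and 47.5 CPM in GFP-positive cells, against 12.6 and 25 CPM in GFP-negative cells (log2 1.86, SE 0.563, edgeR adjusted p = 0.176). Of the luminal list, 13 of 19 tested genes lay lower and 1 higher in both GFP-positive libraries (median -2.16). Gata3 (ENSMUSG00000015619, mm10 chromosome 2, 9857078 to 9890034), the zinc finger regulator of luminal cells, was called at 5.35 and 5.28 CPM in GFP-positive cells, against 48.4 and 64.7 CPM in GFP-negative cells (log2 -3.41, SE 0.418, edgeR adjusted p = 0.0387). Its GFP-positive values were the same within 2% and both lay far below the GFP-negative ones.

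Further falls were called among genes outside the lists. Tfap2b (ENSMUSG00000025927, mm10 chromosome 1, 19208914 to 19238576), an AP-2 transcription factor, was at 0.912 and 1.13 CPM in GFP-positive cells, against 34.2 and 42.7 CPM in GFP-negative cells (log2 -5.22, SE 0.612, edgeR adjusted p = 0.0392). Pkp3 (ENSMUSG00000054065, mm10 chromosome 7, 141078218 to 141090510), a desmosomal plakophilin, was at 2.31 and 3.09 CPM in GFP-positive cells, against 27.8 and 87.7 CPM in GFP-negative cells (log2 -4.41, SE 0.674, edgeR adjusted p = 0.0437), and Patj (ENSMUSG00000061859, mm10 chromosome 4, 98395785 to 98719603), a scaffold of tight junctions and epithelial polarity, at 0.122 and 0.137 CPM in GFP-positive cells, against 7.39 and 21.4 CPM in GFP-negative cells (log2 -6.73, SE 1.04, edgeR adjusted p = 0.0439). In these 3 genes neither GFP-positive library reached 5 CPM.

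Popdc2 (ENSMUSG00000022803, mm10 chromosome 16, 38362209 to 38378216), a cyclic AMP-binding membrane protein of heart and skeletal muscle, had 0 counts in both GFP-positive libraries, against 11.1 and 15.9 CPM in GFP-negative cells, at least 205-fold lower (edgeR adjusted p = 0.0387). The bound divides the GFP-negative mean by the level of 3 counts over both GFP-positive libraries together. The remaining falls among genes at 10 CPM or more were Kctd4, Ackr4 (an atypical receptor that scavenges chemokines), Plekhb1 and Cbr2 (a carbonyl reductase), with log2 fold changes of -4.35, -3.86, -3.69 and -4.36. Of the Cbr2 transcript sequence, 20.6% also occurs in transcripts of other genes, so its counts are uncertain.

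Developmental regulators of somite-derived and brown preadipocyte cells were next. Of 27 tested factors, 14 lay higher and 1 lower in both GFP-positive libraries and 2 were called, with a median of 3.26 (1.02 to 4.13 under the alternatives run). Twist1 (ENSMUSG00000035799, mm10 chromosome 12, 33957671 to 33959829), a basic helix-loop-helix factor of mesenchyme, was at 24.9 and 53.2 CPM in GFP-positive cells, against 1.21 and 0.906 CPM in GFP-negative cells (log2 5.20, SE 0.61, edgeR adjusted p = 0.0387). Twist1 was detected in brown adipocytes of the Myf5 line too, at 20.3 and 14.6 CPM. It was also present in unlabelled Ucp1 GFP-negative mammary cells, at 12 and 12.7 CPM (log2 1.66, edgeR adjusted p = 0.198). Against those cells the median of the regulator list was 1.93.

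Other regulators lay higher without a call in edgeR. En1, a homeobox gene of the central dermomyotome, was at 6.08 and 2.71 CPM in GFP-positive cells, against 0 counts in both GFP-negative libraries, at least 71.1-fold higher by the same kind of bound as for Popdc2 (edgeR adjusted p = 0.127), and Tbx15, a T-box factor of trunk mesenchyme and brown fat, was at 33.1 and 50.9 CPM in GFP-positive cells, against 1.77 and 1.54 CPM in GFP-negative cells (log2 4.66, SE 1.06, edgeR adjusted p = 0.106). Prrx1, a homeobox gene of limb and trunk mesenchyme, was at 193 and 66.1 CPM in GFP-positive cells, against 12.4 and 5.55 CPM in GFP-negative cells (log2 3.85, SE 0.846, edgeR adjusted p = 0.0972). Prdm16, a coregulator of the brown fat programme, overlapped between the groups at 17.5 and 6.38 CPM in GFP-positive cells, against 23.5 and 14.8 CPM in GFP-negative cells (log2 -0.68). Eya1, a coactivator of the eyes absent family, was the 1 factor that lay lower, at 0 and 0.274 CPM in GFP-positive cells, against 6.14 and 6.34 CPM in GFP-negative cells (log2 -5.34, SE 1.79, edgeR adjusted p = 0.221).

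Muscle genes were at low levels. The 18 genes of the myogenic list summed to 62.7 and 19.3 CPM in GFP-positive cells, against 5.45 and 6.73 CPM in GFP-negative cells, with skeletal actin and Myf5 the main part of the higher sum. Of the 18, 9 passed the filter on low counts, of which 4 lay higher and 2 lower in both GFP-positive libraries (median 1.99), beside 14.9% and 20.3% over all genes. That median takes in a gene with 0 counts in all 4 compared libraries, and Myf5 did not pass the filter. Myod1, Myf6 and Pax7 had 0 counts in all 4 libraries. Myog and Pax3 were detected in 1 GFP-positive library at 0.309 and 0.549 CPM. Musk, the muscle-specific receptor kinase, was at 3.28 and 4.73 CPM in GFP-positive cells, against 0 counts in both GFP-negative libraries, at least 64.8-fold higher (edgeR adjusted p = 0.102), and skeletal actin (Acta1) was at 37.2 and 8.37 CPM in GFP-positive cells, against 3.37 and 2.05 CPM in GFP-negative cells (log2 3.07, SE 0.908, edgeR adjusted p = 0.172). The only called member was Mb (ENSMUSG00000018893, mm10 chromosome 15, 77015487 to 77050670), which encodes myoglobin, at 0 counts in GFP-positive cells, against 1.12 and 1.97 CPM in GFP-negative cells, at least 23.5-fold lower (edgeR adjusted p = 0.0466). In Myf5 brown adipocytes Mb was at 141 and 318 CPM, and 31.9% of its exon length overlaps exons of other genes.

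Hox genes are expressed by position along the body axis, and members of 2 of their clusters lay on opposite sides. Of 24 tested Hox genes, 7 lay higher and 8 lower in both GFP-positive libraries, shares of the list that stand beside 14.9% and 20.3% over all genes, and none was called by edgeR, with a median of -0.12. That median takes in a Hox gene with 0 counts in all 4 compared libraries. Hoxc5 was at 39 and 15.7 CPM in GFP-positive cells, against 0 and 1.34 CPM in GFP-negative cells (log2 5.33, SE 1.43, edgeR adjusted p = 0.145) and Hoxc8 at 30.6 and 6.99 CPM in GFP-positive cells, against 0.994 and 1.1 CPM in GFP-negative cells (log2 4.16, SE 0.857, edgeR adjusted p = 0.0838). Hoxd8 was at 42.5 and 70.7 CPM in GFP-positive cells, against 139 and 202 CPM in GFP-negative cells (log2 -1.59, SE 0.414, edgeR adjusted p = 0.137) and Hoxd9 at 11.3 and 21.5 CPM in GFP-positive cells, against 41.1 and 102 CPM in GFP-negative cells (log2 -2.12, SE 0.581, edgeR adjusted p = 0.15). Of the HoxC cluster, Hoxc4, Hoxc5, Hoxc6 and Hoxc8 thus lay higher in both GFP-positive libraries, and the tested HoxD genes Hoxd8, Hoxd9 and Hoxd10 lower. In brown adipocytes of the Myf5 line Hoxc5 was at 30.1 and 42.9 CPM and Hoxd9 at 0.358 and 0.179 CPM.

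**Figure D4:**
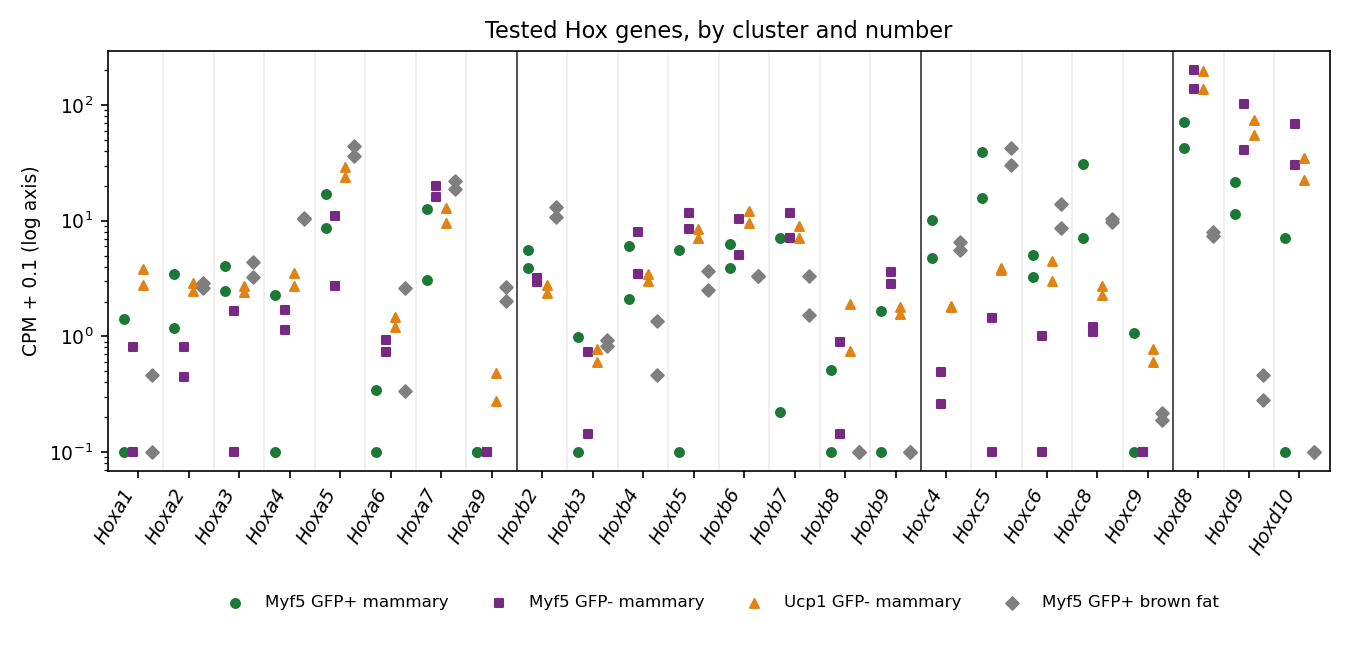
Levels of the 24 tested Hox genes in each library as CPM + 0.1 on a log axis, ordered by cluster and number. In the HoxC cluster the GFP-positive points of Hoxc4, Hoxc5, Hoxc6 and Hoxc8 lie above the Myf5 GFP-negative points, and in the HoxD cluster they lie below them.

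Secreted signals were higher on the GFP-positive side in several families. Wnt2 (ENSMUSG00000010797, mm10 chromosome 6, 17988940 to 18030585), a Wnt ligand of mesenchyme, was at 137 and 66.4 CPM in GFP-positive cells, against 0 and 0.276 CPM in GFP-negative cells (log2 9.43, SE 1.27, edgeR adjusted p = 0.0437). Dkk3 (ENSMUSG00000030772, mm10 chromosome 7, 112116017 to 112159057), a Dickkopf family protein, was at 312 and 312 CPM in GFP-positive cells, against 39.9 and 49.9 CPM in GFP-negative cells (log2 2.80, SE 0.378, edgeR adjusted p = 0.0437). Of 19 tested Wnt ligands and secreted modulators, these 2 were called, and 8 lay higher and 1 lower in both GFP-positive libraries (median 2.80, and 0.37 to 4.31 under the alternatives run).

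Gdf10 (ENSMUSG00000021943, mm10 chromosome 14, 33923587 to 33937983), a divergent bone morphogenetic protein, was at 209 and 292 CPM in GFP-positive cells, against 7.91 and 5.08 CPM in GFP-negative cells (log2 5.27, SE 0.767, edgeR adjusted p = 0.0414), and Fstl1 (ENSMUSG00000022816, mm10 chromosome 16, 37776873 to 37836514), a follistatin-like glycoprotein, at 1657 and 1431 CPM in GFP-positive cells, against 164 and 155 CPM in GFP-negative cells (log2 3.27, SE 0.51, edgeR adjusted p = 0.0466). They were the 2 called members of the TGF-beta and BMP list, of which 15 of 21 lay higher in both GFP-positive libraries (median 2.46). Igfbp6, which binds insulin-like growth factor 2, was at 990 and 725 CPM in GFP-positive cells, against 28.1 and 40.5 CPM in GFP-negative cells (log2 4.64, SE 0.881, edgeR adjusted p = 0.0694). Of the IGF list, 7 of 12 members lay higher in both GFP-positive libraries, beside 14.9% over all genes, with 0 called by edgeR. Of 21 tested growth factors of stroma and epithelium, 8 lay higher and 5 lower in both GFP-positive libraries, beside 14.9% and 20.3% over all genes. Of these growth factors 0 were called, where 0.647% of all genes were. Among them Kitl, the stem cell factor gene, overlapped at 528 and 118 CPM in GFP-positive cells, against 747 and 309 CPM in GFP-negative cells (log2 -0.71).

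Complement genes, which include membrane regulators, and chemokine genes followed. Of 14 tested complement genes, 10 lay higher and 3 lower in both GFP-positive libraries, beside 14.9% and 20.3% over all genes. The list median was 2.58, and 4 members were called, all higher, where 0.531% of all genes were. Cd55 (ENSMUSG00000026399, mm10 chromosome 1, 130439027 to 130462744), a membrane inhibitor that speeds decay of the convertases, was at 182 and 131 CPM in GFP-positive cells, against 19.4 and 13.3 CPM in GFP-negative cells (log2 3.26, SE 0.489, edgeR adjusted p = 0.0437). The proteases C1ra and C2 were called higher too, at log2 3.77 and 6.04. Of their transcript sequence, 15.6%, 59.8% and 54.0% is shared with transcripts of other genes in the order Cd55, C1ra and C2, so counts of these 3 genes are uncertain. The C1q chains C1qa, C1qb and C1qc, products of macrophages and named here after their values were seen, had log2 fold changes of -1.70, -1.44 and -1.31 without a call.

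The chemoattractant Ccl8 (ENSMUSG00000009185, mm10 chromosome 11, 82115185 to 82116799) was at 58.1 and 9.6 CPM in GFP-positive cells, against 0.13 and 0.0788 CPM in GFP-negative cells (log2 8.28, SE 1.23, edgeR adjusted p = 0.0437), and its GFP-positive values were 6-fold apart. Of 17 tested chemokines and cytokines, 16 lay higher and 1 lower in both GFP-positive libraries, summing to 19525 and 7722 CPM in GFP-positive cells, against 2050 and 1646 CPM in GFP-negative cells. Cxcl1 and Ccl2, chosen after their values were seen, were the most abundant, Cxcl1 at 7600 and 2706 CPM in GFP-positive cells, against 866 and 357 CPM in GFP-negative cells (log2 3.08, SE 0.711, edgeR adjusted p = 0.113) and Ccl2 at 4565 and 1642 CPM in GFP-positive cells, against 131 and 35.4 CPM in GFP-negative cells (log2 5.22, SE 1.02, edgeR adjusted p = 0.0738). Replicate 1 of the GFP-positive cells held the larger share of both. Immediate-early genes, which cell isolation can induce, had a median of 0.16 over 16 genes, with Fos at 3504 and 2859 CPM in GFP-positive cells, against 2947 and 2805 CPM in GFP-negative cells (log2 0.15, SE 0.347, edgeR adjusted p = 0.94).

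Brown fat genes lay on both sides. In the thermogenic list, 2 of 15 tested genes lay higher and 4 lower in both GFP-positive libraries, beside 14.9% and 20.3% over all genes. The median of 0.00 falls on members with 0 counts in all 4 compared libraries, so it measures no balance between the groups. In this list 1 gene was called. Otop1 (ENSMUSG00000051596, mm10 chromosome 5, 38275972 to 38304217), a proton channel of brown fat, had 0 counts in GFP-positive cells, against 1.6 and 3.43 CPM in GFP-negative cells, at least 38.2-fold lower (edgeR adjusted p = 0.0392). Brown adipocytes held 526 and 581 CPM of Otop1, so the GFP-negative level was under 1% of that of the fat.

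Ucp1 itself had 0 counts in GFP-positive cells, against 2.64 and 0.473 CPM in GFP-negative cells and 12289 and 16044 CPM in brown adipocytes. By the bound it was at least 23.6-fold lower in GFP-positive than in GFP-negative cells, without a call (edgeR adjusted p = 0.0811). Of the 19 called falls, 6 were at over 10 times the GFP-negative mean in brown adipocytes, Otop1 and Mb among them. General adipocyte genes had a median of -0.59 with 0 called. Of 17 tested, 7 lay lower and 1 higher in both GFP-positive libraries, beside 20.3% and 14.9% over all genes. Fabp4, a fatty acid carrier that capillary endothelium also makes, was at 6072 and 2112 CPM in GFP-positive cells, against 14223 and 7607 CPM in GFP-negative cells (log2 -1.42, SE 0.595, edgeR adjusted p = 0.335), and Cd36, a fatty acid translocase shared with endothelium, at 2607 and 2188 CPM in GFP-positive cells, against 9859 and 5221 CPM in GFP-negative cells (log2 -1.65, SE 0.424, edgeR adjusted p = 0.134). The lipid synthesis list had a median of -0.34 and the cell cycle list one of -0.34, with 0 called in each by edgeR.

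Among called genes outside the lists with a mean of 10 CPM or more in a group, Bcat1 and Ptgis had the largest log2 rises. Below that limit Ptger3, a prostaglandin E receptor gene chosen after its values were seen, was at 5.04 and 10 CPM in GFP-positive cells, against 0 counts in both Myf5 GFP-negative libraries, at least 122-fold higher (edgeR adjusted p = 0.0392). In Ucp1 GFP-negative cells, however, Ptger3 was at 6.33 and 3.5 CPM, which overlaps the GFP-positive values (log2 0.62, edgeR adjusted p = 0.648). Bcat1 (ENSMUSG00000030268, mm10 chromosome 6, 144993835 to 145076184), the cytosolic branched-chain amino acid transaminase, was at 23.2 and 16.1 CPM in GFP-positive cells, against 0 and 0.0394 CPM in GFP-negative cells (log2 9.57, SE 1.26, edgeR adjusted p = 0.0436). Ptgis (ENSMUSG00000017969, mm10 chromosome 2, 167191805 to 167240604), prostacyclin synthase, was at 105 and 54.1 CPM in GFP-positive cells, against 0.0864 and 0.866 CPM in GFP-negative cells (log2 7.35, SE 1.11, edgeR adjusted p = 0.0437). Clec11a (ENSMUSG00000004473, mm10 chromosome 7, 44302687 to 44306902), a secreted lectin-like growth factor of bone marrow stroma, was at 55.6 and 115 CPM in GFP-positive cells, against 1.77 and 0.984 CPM in GFP-negative cells (log2 5.95, SE 0.632, edgeR adjusted p = 0.0387). In Bcat1, Ptgis and Clec11a both GFP-positive libraries were at 16 CPM or more and both GFP-negative ones under 2 CPM.

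The angiopoietin-like gene Angptl1 and the receptor phosphatase gene Ptprd rose as well, at log2 6.43 and 5.66, and so did Amy1, an amylase gene of a family of near copies that shares 25.8% of its sequence and is uncertain. Of the other called rises, Mmp2, Cd248 and F3 were chosen after their values were seen. Mmp2, the gelatinase of fibroblasts, was at 507 and 525 CPM in GFP-positive cells, against 28.9 and 21.1 CPM in GFP-negative cells (log2 4.36, SE 0.599, edgeR adjusted p = 0.0392), and Cd248, endosialin of mesenchymal and mural cells, at 184 and 372 CPM in GFP-positive cells, against 9.03 and 13.7 CPM in GFP-negative cells (log2 4.61, SE 0.555, edgeR adjusted p = 0.0387). F3, which encodes tissue factor, the starter of coagulation, was at 1019 and 668 CPM in GFP-positive cells, against 32.5 and 19.1 CPM in GFP-negative cells (log2 5.03, SE 0.551, edgeR adjusted p = 0.0387).

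**Figure D5:**
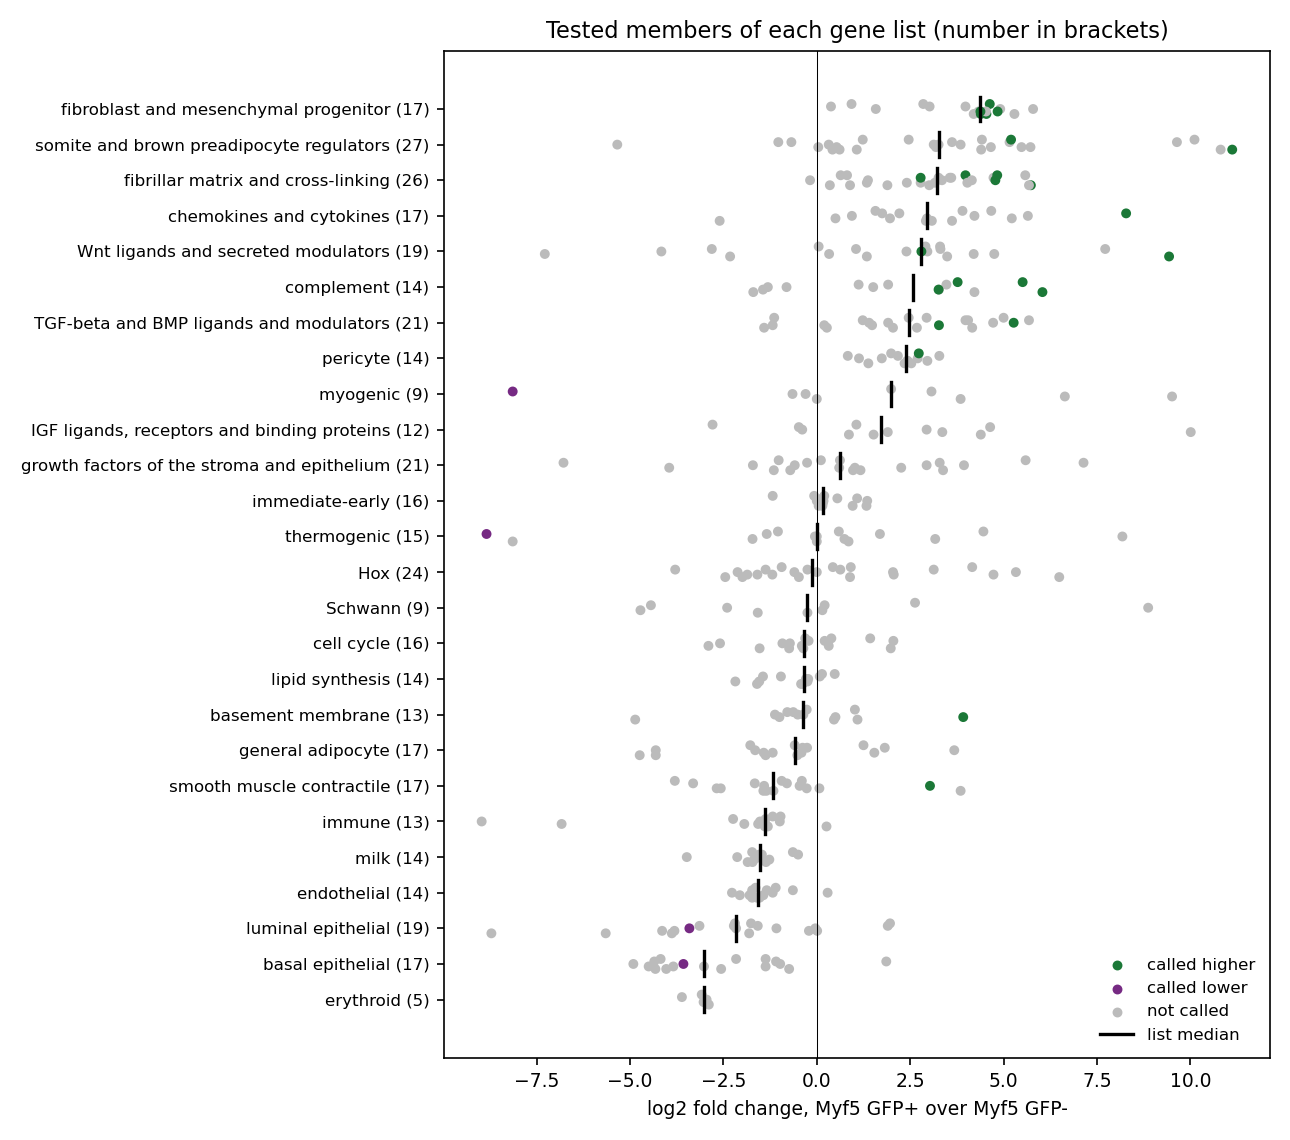
Log2 fold change of Myf5 GFP-positive over GFP-negative cells for the tested members of 26 gene lists, 1 point per gene, with the median of each list as a black bar, and the called genes in colour. Medians run from -3.03 for the erythroid list to 4.38 for the fibroblast list, against -0.061 over all genes tested.

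A second unlabelled group of the same gate and day, from the Ucp1-iCre line, was set against the same GFP-positive libraries. The comparisons share those libraries and are not independent. By edgeR 0 of 16375 genes (0%) were called, where 2790 had an unadjusted p under 0.05 and the smallest adjusted p was 0.108, while DESeq2 called 1302 and limma-voom 821. Without replicate 2 of the GFP-positive cells, edgeR called 1905 genes here. The fibroblast list had a median of 2.95 against the Ucp1 GFP-negative cells and 4.38 against the Myf5 GFP-negative cells, and the basal list -2.55 and -3.02.

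For mural genes the unlabelled groups gave different values. The pericyte list had a median of 0.58 against the Ucp1 GFP-negative cells and 2.39 against the Myf5 GFP-negative cells. Notch3 stood at 134 and 99.7 CPM and Des at 69.2 and 101 CPM in Ucp1 GFP-negative cells, for log2 fold changes of 0.33 and 0.48 (edgeR adjusted p = 0.67 and 0.605). Stromal genes differed in how much of their gap was left. The median of the fibrillar matrix list was 1.73 against the Ucp1 GFP-negative cells and 3.21 against the Myf5 GFP-negative cells. Dpp4 was at 9.78 and 5.97 CPM in Ucp1 GFP-negative cells (log2 3.97, edgeR adjusted p = 0.108), Fn1 at 94.5 and 61.8 CPM (log2 3.01, edgeR adjusted p = 0.108) and Wnt2 at 2.07 and 1.22 CPM (log2 5.94, edgeR adjusted p = 0.126). Collagens had smaller differences there, at log2 1.09 for Col3a1 and 1.37 for Col6a3 (edgeR adjusted p = 0.256 and 0.244), and Postn was at log2 0.05. Whether the unlabelled groups of both lines differ from each other was not tested.

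Promoter sequence was read for the called genes as a description. The RefSeq windows (GRCm38.p6, 250 bases before to 50 after each annotated start) covered 65 of the 87 higher and 12 of the 19 lower genes. The windows below belong to 3 called rises and 1 called fall on which the account turns: a mesenchymal regulator, a collagen, a muscle filament gene and a luminal regulator. Capitals mark matches, on either strand, to the motifs searched, and positions count back from the start.
Twist1 (chr12:33957421-33957720, + strand): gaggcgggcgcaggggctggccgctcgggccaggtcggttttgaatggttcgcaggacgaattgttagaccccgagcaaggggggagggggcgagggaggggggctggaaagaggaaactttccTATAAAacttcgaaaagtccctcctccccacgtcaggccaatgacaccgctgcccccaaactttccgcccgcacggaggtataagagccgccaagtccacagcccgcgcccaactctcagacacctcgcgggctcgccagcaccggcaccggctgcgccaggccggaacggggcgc
Col3a1 (chr1:45311288-45311587, + strand): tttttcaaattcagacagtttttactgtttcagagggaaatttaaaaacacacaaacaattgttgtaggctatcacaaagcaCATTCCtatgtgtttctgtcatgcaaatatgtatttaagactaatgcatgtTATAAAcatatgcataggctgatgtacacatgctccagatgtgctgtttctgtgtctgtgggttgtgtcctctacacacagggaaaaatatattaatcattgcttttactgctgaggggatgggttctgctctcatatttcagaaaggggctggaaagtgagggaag
Des (chr1:75360042-75360341, + strand): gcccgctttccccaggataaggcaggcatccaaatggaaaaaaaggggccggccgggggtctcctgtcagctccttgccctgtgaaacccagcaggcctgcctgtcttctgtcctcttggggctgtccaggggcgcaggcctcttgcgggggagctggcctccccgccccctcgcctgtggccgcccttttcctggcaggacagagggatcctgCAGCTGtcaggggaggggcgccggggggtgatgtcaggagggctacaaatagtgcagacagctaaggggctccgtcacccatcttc
Gata3 (chr2:9878551-9878850, - strand): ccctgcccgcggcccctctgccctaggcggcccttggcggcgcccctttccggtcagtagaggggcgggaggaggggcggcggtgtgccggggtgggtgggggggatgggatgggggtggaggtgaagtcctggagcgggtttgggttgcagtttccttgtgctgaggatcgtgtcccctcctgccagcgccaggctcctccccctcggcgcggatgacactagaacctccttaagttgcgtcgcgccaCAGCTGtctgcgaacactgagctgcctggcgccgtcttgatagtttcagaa
The capitals are a TATA box (TATAAA) at -126 in Twist1, a TEAD site (GGAATG, here on the other strand) at -168 and a TATA box at -117 in Col3a1, and a myogenic E-box (CAGCTG) at -36 in Des and at -1 in Gata3. No 2 of these motifs overlap in the windows shown.

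Over all 32851 RefSeq windows, the TATA box was found in 13.6%, the TEAD site in 14.7% and the myogenic E-box in 16.3%. A gene with several annotated starts has a window for each. Among the 89 windows of called rises they were found in 19, 17 and 20, and among the 17 windows of called falls in 1, 1 and 5. The AP-1 site (TGANTCA) was in 7.81% of all windows, in 10 of the 89 and in 1 of the 17. The CArG box, bound by serum response factor, was in 1.63% of all windows and in 1 of each set, and the EBF palindrome in 0.904% of all windows, in 1 of the 89 and in 0 of the 17. A match describes letters only and is not a site of binding.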

How the data were processed

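Bulk RNA sequencing was compared between sorted mouse cells. Per the labels' protocols, RNA was taken up with an RNeasy Micro kit, amplified with SMART-Seq v4 and sequenced on an Illumina HiSeq. The submitters' processing notes name TopHat, HTSeq, DESeq2 and the build mm10; their versions, the annotation release and the strand setting are not stated there. The authors deposited raw read counts per gene, 1 file per library; 0 columns of per-sample values were left unused. Symbols and positions came from GENCODE M21 for 37607 of 38924 genes. Without a strand setting, reads of overlapping genes cannot be told apart.

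The test was edgeR 4.0.16 quasi-likelihood with TMM factors, filterByExpr (minimum count 10) and Benjamini-Hochberg adjustment at 0.05, in 1 fit of 8 libraries with a mean per group (R 4.3.3). Standard errors are the log2 fold change over the square root of F. Alternatives used RLE factors, DESeq2 1.42.0, limma-voom 3.58.1, other sets of libraries, no filter, and a replicate block. The code was tested on simulated data.

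Members and the 26 gene lists (457 symbols, 456 found) were chosen with earlier results of these data known. Lists are described by counts and medians; setting genes with 0 counts in 1 group at their fold bound moved no list median. Genes named are the driver and sort genes, up to 12 largest called rises and falls at 10 CPM or more, up to 4 called members per list (or the 2 most abundant), and any member of 8 lists: contractile, basal, fibroblast, fibrillar matrix, pericyte, regulators, Hox and myogenic. The text marks genes outside this rule. Some genes that the rule names are not reported here. A gene with 0 counts lies under 0.1249 to 0.1984 CPM in the GFP-positive libraries and under 0.1361 to 0.1434 CPM in the GFP-negative ones on raw totals (3 counts, the 95% limit for a count of 0), which covers counting error only.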

Additional observations from a re-analysis of the deposited data

How the results depend on the processing

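The number of genes called against the Myf5 GFP-negative cells moved with most settings. Beside 106 in the fit reported, edgeR called 228 without a filter on low counts, 232 on 10 libraries and 0 on all 12 libraries or on the 4 libraries compared. The 10 libraries add the Ucp1 brown adipocytes, and the 12 add the Ucp1 GFP-positive mammary cells as well. DESeq2 called 1358 and limma-voom 989. Leaving out 1 library gave 0 to 1349 calls, and no call was left without either GFP-negative library. Without replicate 2 of the GFP-positive cells, 467 were higher and 882 lower. RLE factors (144), the 6 mammary libraries (86) and removal of milk and mitochondrial genes (109) stayed within 1.5 times in number. The 6-library fit shared 61 genes with the 106 and called 10 lower, against 19; the sets with RLE factors and without milk and mitochondrial genes shared 106 and 105. Against the Ucp1 GFP-negative cells, DESeq2 called 1302 and limma-voom 821 where edgeR called 0, and leaving out 1 library gave 0 to 1905 calls. The causes were not tested. A replicate block raised the count to 684, all 106 included; deviations of same-numbered samples from their group means correlated at r = 0.486 over 13532 genes, but the labels do not pair the samples.

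All named genes that edgeR called kept their direction under every alternative in which they were tested. Among the genes checked individually, leaving out 1 library turned the sign of 5 uncalled genes. Their log2 fold changes ran from -0.43 to 0.80 (Cald1), -0.23 to 1.18 (Itgb1), -2.10 to 0.05 (Kitl), -0.39 to 0.89 (Ly6a) and -0.64 to 0.22 (Myl9). Some uncalled genes with values in the text, Jund, Tcf15, Plvap, Tgfb1 and Igfbp7 among them, were not checked in this way. Low counts limit genes at 0 in a group, for which no fitted fold change is given.

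List medians kept their sign for the fibroblast (3.98 to 4.81), fibrillar matrix (2.78 to 3.56), pericyte (2.02 to 2.73), regulator (1.02 to 4.13), Wnt (0.37 to 4.31), myogenic (1.19 to 3.07), contractile (-1.63 to -0.11) and basal epithelial lists (-3.81 to -1.79). They took both signs for the basement membrane (-0.64 to 0.58), Hox (-2.02 to 0.26), thermogenic (-1.49 to 0.64), immediate-early (-0.11 to 0.84) and cell cycle lists (-0.96 to 0.15), and ran from -0.00 to 1.54 for the growth factor list.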

Other observations

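Some genes were low in replicate 1 and high in replicate 2 of both Myf5 mammary groups. How many of all genes share this pattern was not counted. Jund, an AP-1 subunit, was at 24.9 and 730 CPM in GFP-positive cells, against 21.7 and 654 CPM in GFP-negative cells. Of the Jund exon length, 52.6% overlaps exons of other genes, so its counts are uncertain. Tcf15, a helix-loop-helix factor of somites and endothelium, was at 1.88 and 122 CPM in GFP-positive cells, against 4.28 and 117 CPM in GFP-negative cells, and Plvap, a protein of endothelial fenestrae, at 32.5 and 817 CPM in GFP-positive cells, against 29 and 668 CPM in GFP-negative cells. Tgfb1 was at 0.425 and 16.6 CPM in GFP-positive cells, against 1.77 and 43.7 CPM in GFP-negative cells, and Igfbp7 at 173 and 3105 CPM in GFP-positive cells, against 115 and 1455 CPM in GFP-negative cells. In the Ucp1 GFP-negative cells replicates lay closer together, with Jund at 712 and 830 CPM and Plvap at 506 and 630 CPM. Jund, Plvap and Tgfb1 were chosen after their values were seen, and all genes of this paragraph were grouped by those values. The cause was not tested.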
